A study of Rattus norvegicus with 12 samples.

Results

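The adrenergic receptor family was examined in epididymal adipocytes of rats after chronic unpredictable stress (CUS). The members were taken by gene name from the array design, and Adra1a, Adra1b, Adra1d, Adra2a, Adra2b, Adra2c, Adrb1 and Adrb3 each had 1 probe, so that 8 probes of 30367 non-control probes were read, from 24 spots per array. A further receptor gene of the family is not analysed here. Male Fisher 344 rats received 2 stressors per day for 35 days in a computer randomized order (swimming, rotation, isolation, food and water deprivation, lights on or off, strobe light, wet bedding and crowding), and control rats were untreated apart from handling every 2 days. Each group held 6 samples with 1 array each, and nothing in the labels tells whether a sample came from 1 rat or from several, so that the p-values measure the spread between these samples. No age is given in the labels. The labels give epididymal adipocytes as the cell type, while their extraction text speaks of preadipocytes. The arrays were 1-colour Agilent gene expression arrays carrying Cy3-labelled total RNA.

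Adrenergic receptors are membrane receptors for adrenaline and noradrenaline and act through G proteins. The beta receptors couple to the stimulatory G protein, raise cyclic AMP and so switch on lipolysis, the release of fatty acids from stored fat. The alpha-2 receptors couple to inhibitory G proteins and lower cyclic AMP, and the alpha-1 receptors couple to the Gq class, which activates phospholipase C and calcium release. Rodent white fat cells are known for a high content of the beta-3 receptor, and alpha-1 receptors are known from the smooth muscle of blood vessels.

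The probes of 3 members are shown. Those of Adra2c and Adrb1 are a reading frame closed by a stop codon (in capitals), and that of Adra1a holds no stop codon in 2 of its 3 forward frames and has no capitals:
Adra1a: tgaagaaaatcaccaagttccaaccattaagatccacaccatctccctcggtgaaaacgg
Adra2c: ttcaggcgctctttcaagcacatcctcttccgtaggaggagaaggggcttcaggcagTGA
Adrb1: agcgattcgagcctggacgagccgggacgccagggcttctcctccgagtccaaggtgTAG
On rat build rn4, the array design places these at chr15:46263114-46263173 on the plus strand, chr14:81108144-81108203 on the minus strand and chr1:263026996-263027055 on the plus strand. The remaining probes lie at chr10:28889094-28889153 (Adra1b, minus strand), chr3:119280059-119280118 (Adra1d, minus strand), chr3:114869275-114869334 (Adra2b, plus strand) and chr16:69166311-69166370 (Adrb3, plus strand), and that of Adra2a has no position in the design. All probes are 60 bases long. Over the 28 pairs of probes the longest run of bases shared was 7, and the best alignment without gaps matched 24 of 60 bases, so that no probe repeats another's target.

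Values are given as log2 intensity relative to the 75th percentile of the non-control probes of the same array, and differences are CUS minus control. A probe was tested with limma where 6 or more of the 12 arrays read it well above background, which held for 19721 probes and for 7 of the 8 receptors, and p-values were adjusted (Benjamini-Hochberg) over all 19721. The 75th percentile was an intensity of 541 to 627 on the CUS arrays and of 229.5 to 399.7 on the control arrays, and 10 spike-in probes, which read control RNA put into the labelling reaction, differed by -0.07 before scaling (exact permutation p = 0.61) and by -0.84 after it (p = 0.0043). Scaling on the spike-ins instead moved the median difference of all tested probes from -0.02 to 0.83, so each tested receptor is also given relative to that median. All 6 CUS arrays lay on 1 slide and all 6 control arrays on another, and slide and group cannot be told apart. Adipocyte markers (10 of 10 measured) were above background on all arrays, Adipoq, Fabp4 and Pparg among them. Markers of red blood cells (7 of 7 measured genes, read from 6 probes) and of mast cells (7 of 7) were higher in CUS, with a median difference of 4.16 for the red blood cell markers. The mast cell markers Cpa3, Mcpt1 and Ms4a2 were well above background on 7, 6 and 6 of the 12 arrays and are given no size, since with normexp background correction they differed by 0.88, 0.38 and -0.21 (limma adjusted p = 0.00031, 0.06 and 0.15). That correction adds an offset of 50, and the 75th percentile, higher on the CUS arrays, is subtracted after it. Dim probes therefore move toward negative differences in that setting, and the median of all tested probes was -0.18. The summed linear level of the red blood cell markers was 1720 to 2350 in CUS and 50 to 143 in controls, and that of the mast cell markers 2.16 to 5.67 and 0.268 to 0.451. Of all genes, each read from its brightest tested probe, 24.2% were called higher in CUS and 25.8% lower. Macrophage markers were higher for 3 of 8 (1 by the methods' test) and lower for 0 (1 at an unadjusted p under 0.05, 0 by the methods' test), and of the 2 probes of Csf1r the brighter, which gave 1 of the 3 calls, was at 1.25 and the other at -1.25 (adjusted p = 6.8e-06). Their part and that of both other cell types in the receptor differences was not tested.

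Of the 7 receptors tested, Adrb3 was higher in CUS (14.3% of the 7), Adra1a, Adra1b and Adra2b were lower (42.9%), and Adra1d, Adra2c and Adrb1 did not pass. Over all tested probes 24.7% were called higher and 25.4% lower, so that calls in either direction are common on these arrays and these shares of 7 are no result about the receptors as a family. The median difference of the 7 receptors was -0.13, against -0.02 over all tested probes. Adra1a and Adra2b had values that did not overlap between the groups, which held for 21.8% of all tested probes. The control SD exceeded the CUS SD for all 7 tested receptors, as it did for 75.7% of tested probes. Relative to the spike-ins no receptor was lower (limma, 0 also at an unadjusted p under 0.05) and 4 were higher, Adra1d, Adra2c, Adrb1 and Adrb3, with 65.9% of all probes called higher and 2.37% lower under that scaling.

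**Figure D1:**
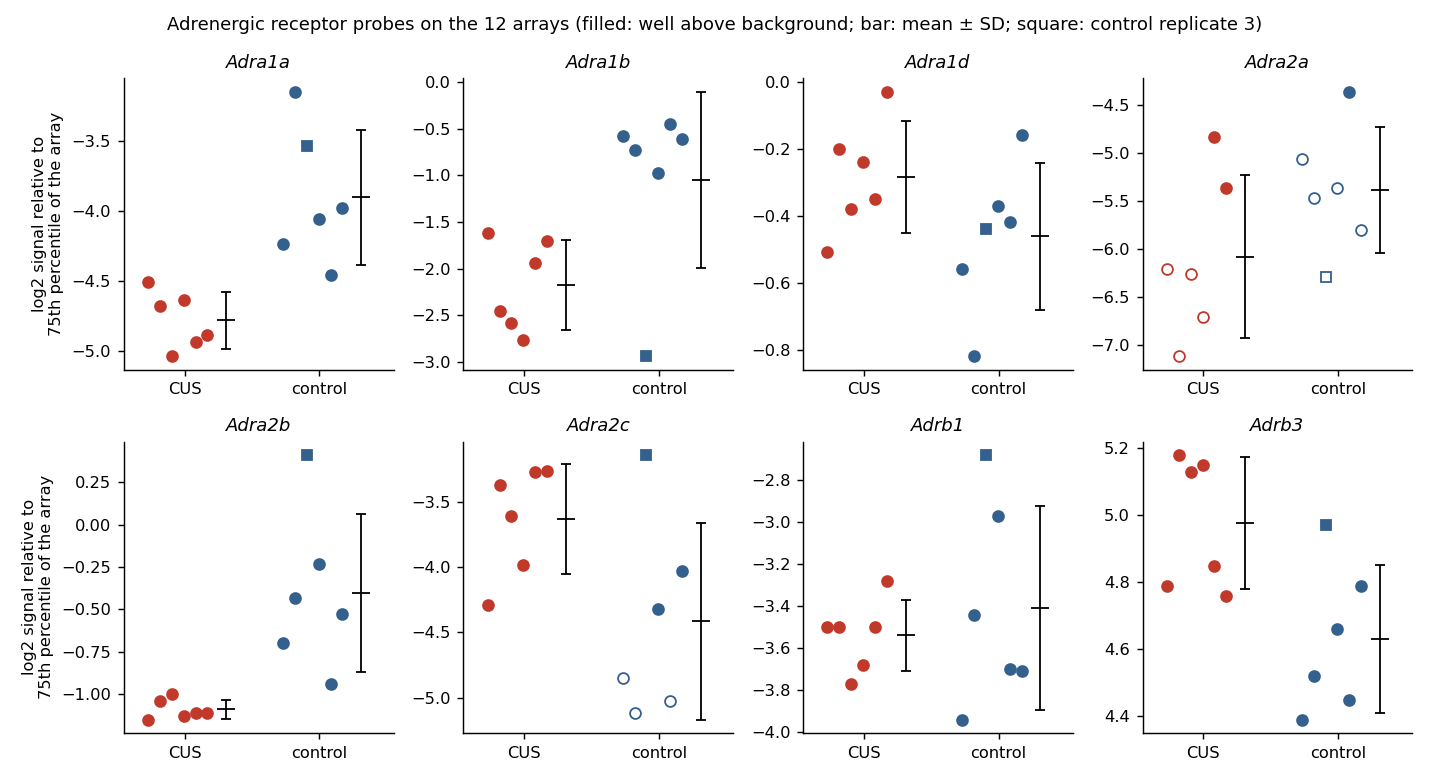
Log2 signal of each receptor probe after scaling on the 75th percentile, for 6 CUS and 6 control arrays in the order of their replicate numbers. Filled symbols are well above background, squares are control replicate 3, bars are mean ± SD, and the vertical axes differ between panels; Adra1a and Adra2b are the tested receptors whose groups do not overlap, and control replicate 3 lies at -2.94 for Adra1b, below all other arrays.

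Among the alpha-1 receptors, Adra1a, the alpha-1A receptor, was lower in CUS. Its log2 signal was -5.04, -4.79 and -4.51 (lowest, median, highest) in CUS and -4.46, -4.02 and -3.15 in controls, so that every CUS array lay below every control array. The means were -4.78 ± 0.20 for CUS and -3.91 ± 0.48 for controls (SD, 6 arrays each), a difference of -0.88 (95% interval -1.31 to -0.45, limma adjusted p = 0.0033), or 1.84-fold lower. Before scaling the intensities overlapped, with 16.6 to 25.2 in CUS and 16.1 to 45.0 in controls, and the difference relative to the spike-ins was -0.03 (adjusted p = 0.92), which is -0.86 relative to the median probe. Quantile normalization gave -0.48 (adjusted p = 0.059). The signal was well above background on all 12 arrays.

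Adra1b, the alpha-1B receptor, had the most negative difference of the family. In CUS its log2 signal was -2.77, -2.20 and -1.62, and in controls -2.94, -0.67 and -0.45. Control replicate 3, at -2.94, was lower than every CUS array, and the other controls, at -0.97 to -0.45, were higher than every CUS array. The difference was -1.13 (95% interval -1.97 to -0.28, adjusted p = 0.030), with means of -2.18 ± 0.49 and -1.05 ± 0.95 (SD, n = 6 per group), and without control replicate 3 it was -1.51 (adjusted p = 0.0001). The call was lost when any of CUS replicates 2, 3 and 4 or control replicates 1, 2, 4, 5 and 6 was left out, with differences of -1.11 to -1.01 and adjusted p-values of 0.052 to 0.064. It was also lost under quantile normalization (-1.03, adjusted p = 0.054), under median scaling (-0.86, adjusted p = 0.076) and relative to the spike-ins (-0.28, adjusted p = 0.58, or -1.11 relative to the median probe). The deposited quantile-normalized values (-1.03, limma adjusted p = 0.056) and the methods' t-test with unequal variances (adjusted p = 0.068) lost the call as well. A probe that the array design lists by accession only, for exon 1 of the alpha-1B gene, was above background on 3 CUS arrays and on 0 control arrays, was not tested, and gave a difference of 0.08 (adjusted p = 0.78 in a fit without the filter).

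Adra1d, the alpha-1D receptor, is read from 10 spots per array. Its log2 signal was -0.51, -0.30 and -0.03 in CUS and -0.82, -0.43 and -0.16 in controls, and the groups overlapped widely. The difference of 0.18 (95% interval -0.07 to 0.42) did not pass (adjusted p = 0.22). The unscaled intensities did not overlap, at 382 to 548 in CUS and 169 to 331 in controls, and relative to the spike-ins the difference was 1.02 (adjusted p = 0.00078), or 0.19 relative to the median probe.

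Adra2b, the alpha-2B receptor, was lower in CUS and showed the narrowest spread of the family there. The log2 signal was -1.15, -1.11 and -0.997 in CUS and -0.94, -0.48 and 0.41 in controls, and every CUS array lay below every control array. The difference was -0.69 (95% interval -1.08 to -0.30, adjusted p = 0.0075), or 1.61-fold lower, with means of -1.09 ± 0.06 for CUS and -0.40 ± 0.47 for controls (SD, 6 arrays each). The control SD was 7.95 times the CUS SD, against a median ratio of 1.47 over tested probes, and 0.188% of tested probes had a ratio as high. Its call held without any 1 array, with differences of -0.80 to -0.53 (adjusted p = 0.0019 to 0.018), and under quantile normalization (-0.67, adjusted p = 0.0091). The unscaled intensities, however, lay within the same range, at 245 to 286 in CUS and 188 to 305 in controls, and relative to the spike-ins the sign turned (0.16, adjusted p = 0.53), with -0.67 relative to the median probe.

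Adra2c, the alpha-2C receptor, had the most positive difference of the family but did not pass the threshold. All 6 CUS arrays were well above background but only control replicates 3, 4 and 6 were. The log2 signal was -4.29, -3.49 and -3.26 in CUS and -5.12, -4.58 and -3.14 in controls. Control replicate 3 was the highest of all arrays, and 4 controls lay below all CUS arrays. The difference was 0.78 (95% interval 0.09 to 1.48, adjusted p = 0.057), with means of -3.63 ± 0.42 and -4.41 ± 0.76 (SD, n = 6 per group). Without control replicate 3 it was 1.04 (adjusted p = 0.0029), without CUS replicate 1 it was 0.92 (adjusted p = 0.035), and under quantile normalization it was 1.14 (adjusted p = 0.012). Relative to the spike-ins it was 1.63 (adjusted p = 0.00015), or 0.80 relative to the median probe. With normexp background correction, which raises dim signals toward a common floor and so moves dim probes toward negative differences, it was -0.22 (adjusted p = 0.17). Neither size nor sign of this difference was settled.

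Adra2a, the alpha-2A receptor, was well above background on CUS replicates 5 and 6 and on control replicate 5 and was not tested. The intensities were 3.88 to 20.6 in CUS and 2.93 to 18.3 in controls. In a fit without the filter the difference was -0.69 (95% interval -1.55 to 0.17, adjusted p = 0.15). At this signal over background the estimate was imprecise, and no difference was called.

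Adrb3, the beta-3 receptor through which catecholamines start lipolysis in rodent fat, was higher in CUS. Its log2 signal was 4.76, 4.99 and 5.18 in CUS and 4.39, 4.59 and 4.97 in controls. CUS replicates 2, 3 and 4 lay above all controls, 4 controls lay below all CUS arrays, and control replicate 3 was the highest control. The means were 4.97 ± 0.19 and 4.63 ± 0.22 (SD, n = 6 per group), a difference of 0.34 (95% interval 0.08 to 0.61, adjusted p = 0.032), or 1.27-fold. Of all tested probes, 76.4% had a lower difference. No spot was saturated, and the unscaled intensities did not overlap (15025 to 22183 in CUS, 6359 to 10246 in controls). Relative to the spike-ins the difference was 1.19 (adjusted p = 0.0002), or 0.36 relative to the median probe. The sign was the same in every alternative run, but the call was lost under quantile normalization (0.25, adjusted p = 0.092) and without any of CUS replicates 2, 3 and 4 or control replicates 1, 2, 4 and 5 (0.30 to 0.35, adjusted p = 0.051 to 0.073).

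Adrb1, the beta-1 receptor, differed by -0.13 (95% interval -0.56 to 0.29, adjusted p = 0.60). The log2 signal was -3.77, -3.50 and -3.28 in CUS and -3.94, -3.57 and -2.68 in controls. The controls spanned the CUS range on both sides, with replicate 3 again the highest. The sign depended on the processing, from -0.43 with normexp background correction (adjusted p = 0.0042) to 0.15 under quantile normalization (adjusted p = 0.53) and 0.71 relative to the spike-ins (adjusted p = 0.018). Relative to the median probe of the same setting these were -0.25, 0.11 and -0.11, so the spike-in value lay below the median of all tested probes.

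**Figure D2:**
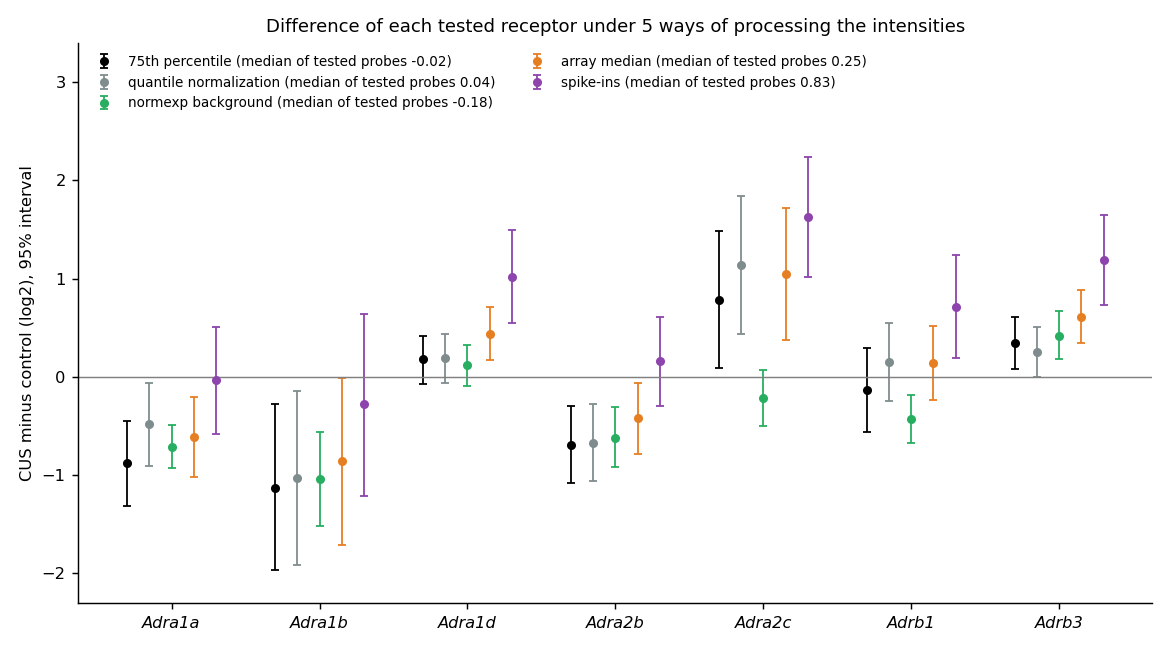
Difference between CUS and control (log2) of the 7 tested receptors with 95% intervals, under 5 ways of processing the intensities. The zero line stands for no difference at that scaling, and the legend gives the median difference of all tested probes; the spike-in scaling moves every receptor upward together, and normexp background correction takes Adra2c from 0.78 to -0.22.

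Ratios of receptor probes on the same array do not depend on how arrays are scaled, and so they address whether the receptors differed from each other in their change. The log2 ratio was compared for all 21 pairs of the 7 receptors with an exact permutation test over the 924 assignments of arrays to groups, for which the smallest two-sided p is 0.0022, and 10 pairs passed after adjustment over the 21. Pairs of other probes were not tested. With 24.7% of tested probes called higher and 25.4% lower, the count of passing pairs is no result about the receptors as a family, and the 21 pairs share 7 receptors. Of the 10 pairs, 3 involve Adra2c, which was well above background on only 3 of the 6 control arrays, and their sizes are not given. Adra1a and Adra2b changed downward relative to each of Adra1d, Adrb1 and Adrb3, which makes 6 of the other 7. Adra1a was dim as well, with unscaled intensities of 16.6 to 25.2 in CUS and 16.1 to 45.0 in controls. The sizes of its ratios are limited by signal over background. The log2 ratio of Adra1a to Adrb3 was -9.76 ± 0.28 for CUS and -8.54 ± 0.44 for controls (SD, 6 arrays each), a difference of -1.22 (exact permutation, adjusted p = 0.011). That of Adra2b to Adrb3 differed by -1.03 (exact permutation, adjusted p = 0.011). Neither ratio, nor that of Adra1d to Adra2b, overlapped between the groups. Within the alpha-1 subtypes, Adra1a to Adra1d differed by -1.05 (exact permutation, adjusted p = 0.015) and Adra1b to Adra1d by -1.30 (exact permutation, adjusted p = 0.045). The ratio of the beta receptors, Adrb1 to Adrb3, differed by -0.48 (exact permutation, adjusted p = 0.070). Those of Adra1a to Adra2b and of Adra1a to Adra1b differed by -0.19 and 0.25 (exact permutation, adjusted p = 0.46 and 0.68). Under quantile normalization 12 pairs passed. The difference of Adra1a itself shrank there from -0.88 to -0.48 and that of Adrb3 from 0.34 to 0.25, so their ratio was smaller too. With normexp background correction the ratios to Adrb3 differed by -1.13 for Adra1a and -1.04 for Adra2b, those to Adrb1 by -0.28 and -0.19, and that of the beta receptors by -0.85. The 6 ratios with Adra2c moved more than any other, and those of Adra1d to Adra2c and of Adra2c to Adrb3, which had not passed, turned their sign.

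**Figure D3:**
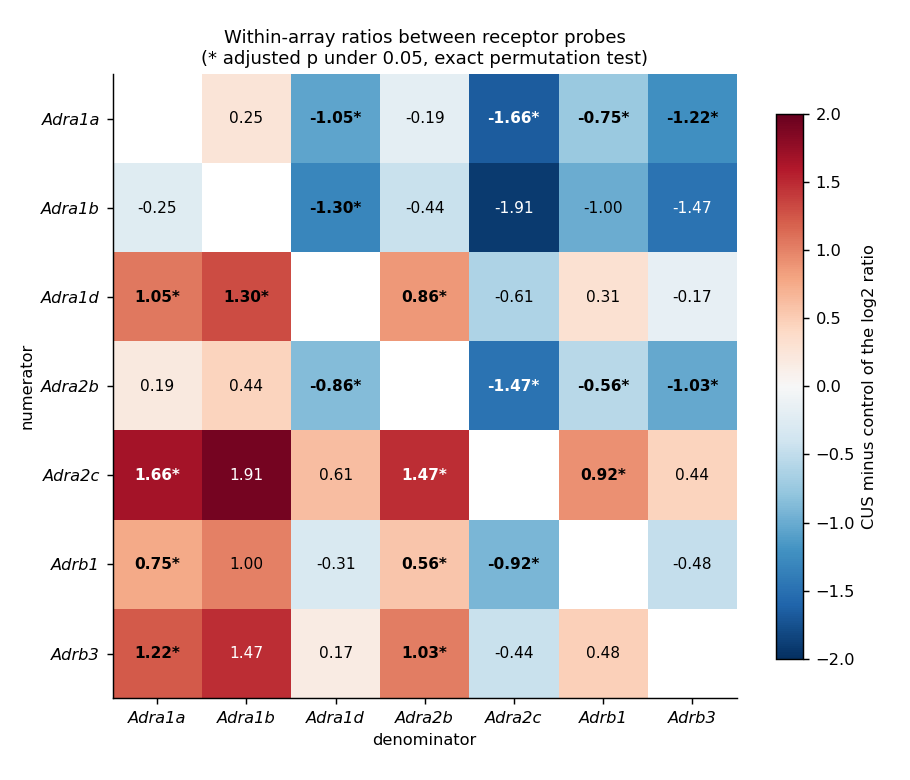
Difference between CUS and control of the within-array log2 ratio for each pair of tested receptors, numerator in rows and denominator in columns, with the lower triangle the sign-turned copy of the upper. Asterisks mark the 10 of 21 pairs with an adjusted p under 0.05, of which 3 involve Adra2c, which was not well above background on 3 control arrays; the rows of Adra1a and Adra2b are negative against Adra1d, Adrb1 and Adrb3.

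Control replicate 3 stood apart in several receptors, and it also stood apart in markers of other cells. The mean log2 signal of 8 vascular smooth muscle markers was -1.34 on that array and 0.27 to 1.22 on the other controls, and that of 8 endothelial markers was -0.51 against 1.06 to 1.52, while that of 10 adipocyte markers was 5.60 against 4.54 to 4.76. On the CUS arrays the smooth muscle mean ran from -1.68 to -0.35. The smooth muscle list was lower in CUS for 6 of 8 markers, with a median difference of -1.37, and none was higher (0 also at an unadjusted p under 0.05 and by the methods' test). The range of its summed linear level was 6.12 to 14.6 in CUS and 8.84 to 49.5 in controls. Fewer cells of a type and less RNA per cell cannot be told apart in these samples. Acta2, smooth muscle actin, differed by -1.71 (adjusted p = 0.0022), Myh11, the smooth muscle myosin heavy chain, by -1.39 (adjusted p = 0.0033) and Actg2 by -3.09 (adjusted p = 0.0073). Cnn1, a calponin of contractile cells, was also called lower but was well above background on 6 of the 12 arrays, and its difference is given no size. For Lmod1 2 probes disagreed, at 0.06 and -1.90. The 8 endothelial markers were lower for 4 and higher for 0 (0 also at an unadjusted p under 0.05 and by the methods' test), and without control replicate 3 they were lower for all 8. Their summed level was 19.6 to 39.3 in CUS and 18.7 to 81.0 in controls, and no marker of either list was at background on all arrays. Adra1b followed both lists array by array: the 5 controls with high smooth muscle and endothelial means were the 5 arrays with the highest Adra1b, and control replicate 3 had the lowest endothelial mean and the lowest Adra1b. This was not particular to the smooth muscle and endothelial lists. The mean of 6 nerve and Schwann cell markers was -2.16 to -1.78 on the same 5 controls. It was -2.44 on control replicate 3 and -3.19 to -2.18 in CUS. The CUS arrays ranked by Adra1b as they did by the smooth muscle, nerve and Schwann cell, stromal and preadipocyte, and mast cell means. Other lists were low on control replicate 3 too. The mean of 8 stromal and preadipocyte markers was 0.05 there, 1.77 to 1.99 on the other controls and 0.62 to 1.79 in CUS, and that of 8 macrophage markers was -0.27 against 0.88 to 1.07 on the other controls. The stromal and preadipocyte list was lower in CUS for 3 of 8 markers (5 without control replicate 3) and higher for 0 (0 also at an unadjusted p under 0.05 and by the methods' test), with a median difference of -0.78 and a summed level of 45.5 to 105 in CUS and 46.8 to 153 in controls. Of all genes 25.8% were called lower with all arrays, and the share without control replicate 3 is not given here, so the counts without that array have no background beside them. The part of these cells in the receptor differences was not tested.

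**Figure D4:**
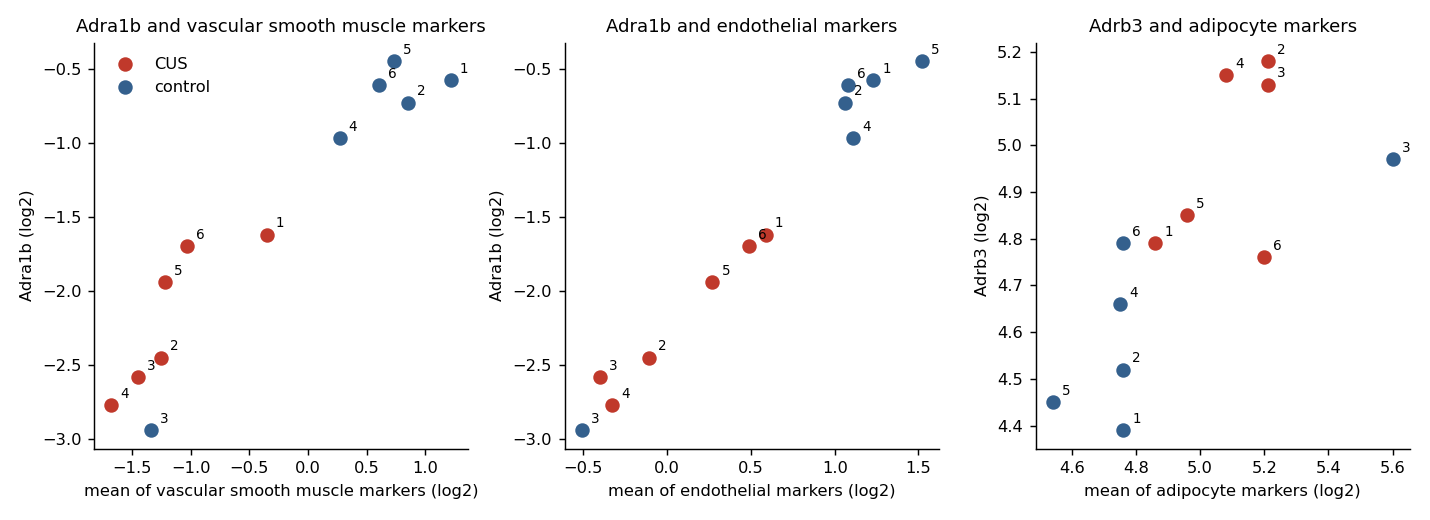
Log2 signal of Adra1b against the mean of vascular smooth muscle markers and of endothelial markers, and of Adrb3 against the mean of adipocyte markers, with 1 point per array, coloured by group and numbered by replicate. In the first 2 panels control replicate 3 lies among or beyond the CUS arrays (-2.94 for Adra1b) and away from the other controls; in the third it has the highest adipocyte mean, 5.60.

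When each receptor was expressed per array relative to a marker mean, a comparison added after seeing the data, 21 differences were tested (7 receptors, 3 lists) with an exact permutation test and adjusted together, and 4 passed. The adipocyte list went both ways, with 3 of 10 markers higher (6 without control replicate 3) and 3 lower, so that its mean is a mix of both. A list mean moves all receptors on an array by the same amount. The smooth muscle and endothelial lists were themselves lower in CUS, so every receptor moved upward relative to them, Adrb1 from -0.13 to 1.42 for smooth muscle. These comparisons therefore cannot tell what part those cells have in the receptor differences, which was not tested. Relative to the smooth muscle mean, Adra1b was not lower but differed by 0.42 (exact permutation, adjusted p = 0.061), and relative to the endothelial mean by -0.30 (exact permutation, adjusted p = 0.074). Adrb3 relative to the adipocyte mean differed by 0.12 (exact permutation, adjusted p = 0.40), with -0.11 ± 0.18 for CUS and -0.23 ± 0.24 for controls (SD, 6 arrays each), and by 0.04 without control replicate 3. Adra1a and Adra2b remained lower relative to the adipocyte mean, by -1.10 and -0.91 (exact permutation, adjusted p = 0.023 each), but not relative to the smooth muscle mean, where the differences were 0.68 and 0.86 (exact permutation, adjusted p = 0.26 and 0.24). The other two that passed were Adrb3 and Adra1d relative to the smooth muscle mean, by 1.90 and 1.73 (exact permutation, adjusted p = 0.045 each).

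The 5 probes whose deviations from the group means over the 12 arrays were most like those of Adrb3 were those of Tfg, Derl3, Nsfl1c, Mterf2 and Sdhaf2 (Pearson's r of 0.91 to 0.94 over 12 arrays that share their scaling, given as a description). Their differences between CUS and control were 0.24 for Tfg and 0.43 for Sdhaf2 (limma adjusted p = 0.037 and 0.049), while those of Derl3, Nsfl1c and Mterf2 did not pass, at 0.24, 0.16 and 0.30 (adjusted p = 0.16, 0.18 and 0.14).

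Downstream and around the receptors, 84 genes of adrenergic signalling in 7 lists were read, each from its brightest tested probe, and 76 were tested. Of these 15 were higher (19.7%) and 19 lower (25.0%), against 24.2% and 25.8% of all 17429 genes read in the same way, so that the signalling genes as a whole were called about as often as any genes. Their median difference was -0.03, as over all genes. Relative to the spike-ins 50 of the 76 were higher and 1 lower, so the directions in the next paragraphs hold for the 75th percentile scaling. Without control replicate 3 the counts were 21 and 27, with 3 higher in the cAMP cascade, 2 higher among catecholamine genes, 2 lower among G proteins and 1 lower among thermogenic targets. The share of all genes called without that array is not given here, so these counts have no background beside them.

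Of the lipolysis effectors 5 of 9 were called higher (55.6%) and 1 lower (11.1%), with a median difference of 0.63. Over all genes 24.2% were called higher and 25.8% lower. With so few genes the counts in this list and the next are no result about a list. Cidec, which coats lipid droplets, differed by 1.67 (adjusted p = 0.00043), Mgll, which cleaves monoglycerides, by 0.74 (adjusted p = 0.00032), Abhd5, which activates adipose triglyceride lipase, by 0.72 (adjusted p = 0.00093) and G0s2, an inhibitor of that lipase, by 0.63 (adjusted p = 0.0048). Fabp4, the fatty acid carrier, differed by 0.38 without passing (adjusted p = 0.088). The list thus holds both activators and inhibitors of lipolysis among the genes called higher. For Lipe, the hormone-sensitive lipase, 2 probes disagreed, the brighter at -0.02 (adjusted p = 0.92) and the other at -1.07 (adjusted p = 0.00034), and Plin1, the droplet coat that protein kinase A phosphorylates, differed by -0.60 (adjusted p = 0.0091); both were named after their values were seen. Of the thermogenic targets, Ucp1, Ppargc1a, Elovl3 and Dio2 were above background on 2, 1, 1 and 0 arrays at most and were not tested. The others were Cidea (0.64, adjusted p = 0.016), Fgf21 (0.57, adjusted p = 0.0043) and the early response gene Nr4a1 (-0.15, adjusted p = 0.77). With normexp background correction, under which dim probes move toward negative differences, Fgf21 turned to -0.21 (adjusted p = 0.046), and its direction is not settled.

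Among the G proteins 5 of 12 were higher (41.7%) and 1 lower (8.33%), against 24.2% and 25.8% of all genes. These shares rest on few genes and are no result about the list. Gnb2, a beta subunit, differed by 0.60 (adjusted p = 0.0018), Gnao1 by 0.43 (adjusted p = 0.012; its other probe by 0.33, adjusted p = 0.10) and Gnal, a stimulatory alpha subunit, by 0.40 (adjusted p = 0.013), while Gnai2, an inhibitory alpha subunit, differed by -0.32 (adjusted p = 0.018). With normexp background correction Gnao1 and Gnai2 did not pass, at 0.02 and -0.18 (adjusted p = 0.87 and 0.077). The brightest probe of Gnas, the main stimulatory alpha subunit, differed by 0.14 (adjusted p = 0.26), and its other probe by -1.09 (adjusted p = 0.00022). The cAMP cascade was lower for 6 of 18 (33.3%) and higher for 1 (5.56%), with a median of -0.13, and its share of lower calls was near that of all genes. The gene called higher, Prkar2a, turned from 0.43 (adjusted p = 0.018) to -0.39 with normexp background correction (adjusted p = 0.0025), under which dim probes move toward negative differences. Prkar2a was named after its values were seen. The adenylyl cyclases Adcy9 and Adcy5 differed by -1.91 (adjusted p = 2.6e-06) and -0.99 (adjusted p = 0.00022), and the phosphodiesterase Pde4a by -0.64 (adjusted p = 0.00028), with its other probe at -0.17 (adjusted p = 0.42). The protein kinase A subunits Prkaca and Prkar2b differed by 0.11 (adjusted p = 0.43) and 0.46 (adjusted p = 0.069).

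The phospholipase C cascade, the route of the alpha-1 receptors, was lower for 5 of 12 (41.7%) and higher for 1 (8.33%), with a median of -0.34. Of all genes 25.8% were called lower and 24.2% higher. With so few genes per list, the counts in this paragraph are no result about a list. Plcb2, a phospholipase C, differed by -1.02 (adjusted p = 0.011), the calcium channel Itpr1 by -0.51 (adjusted p = 0.013; its other probe by -0.35, adjusted p = 0.066) and the kinase Prkcd by -0.51 (adjusted p = 0.023), whereas Itpr2, another channel of that family, differed by 0.74 (adjusted p = 0.001). Receptor kinases, arrestins and RGS proteins, which switch receptors and G proteins off, were lower for 2 of 10 and higher for 0 (0 also at an unadjusted p under 0.05 and by the methods' test). Grk4 differed by -0.69 (adjusted p = 0.0018) and Grk6 by -0.56 (adjusted p = 0.026), with its other probe at -0.03 (adjusted p = 0.87). Rgs2 and Rgs4 did not pass, at 0.28 and -0.58 (adjusted p = 0.18 and 0.25). Without control replicate 3 the list was lower for 4 of 10. Genes of catecholamine synthesis, transport and breakdown were lower for 4 of 12 and higher for 1. Th, tyrosine hydroxylase, and Slc6a2, the noradrenaline transporter, differed by -0.56 (adjusted p = 0.003) and -0.63 (adjusted p = 0.0032), and Maob, a monoamine oxidase, by 0.74 (adjusted p = 0.0015), or 0.21 with normexp background correction (adjusted p = 0.11). Maoa and Sult1a1 did not pass, at 0.24 and 0.17 (adjusted p = 0.14 and 0.29). Nerve and Schwann cell markers were lower for 3 of 6 and higher for 1, with a summed level of 8.15 to 12.6 in CUS and 5.79 to 11.0 in controls, and their part in these differences was not tested.

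**Figure D5:**
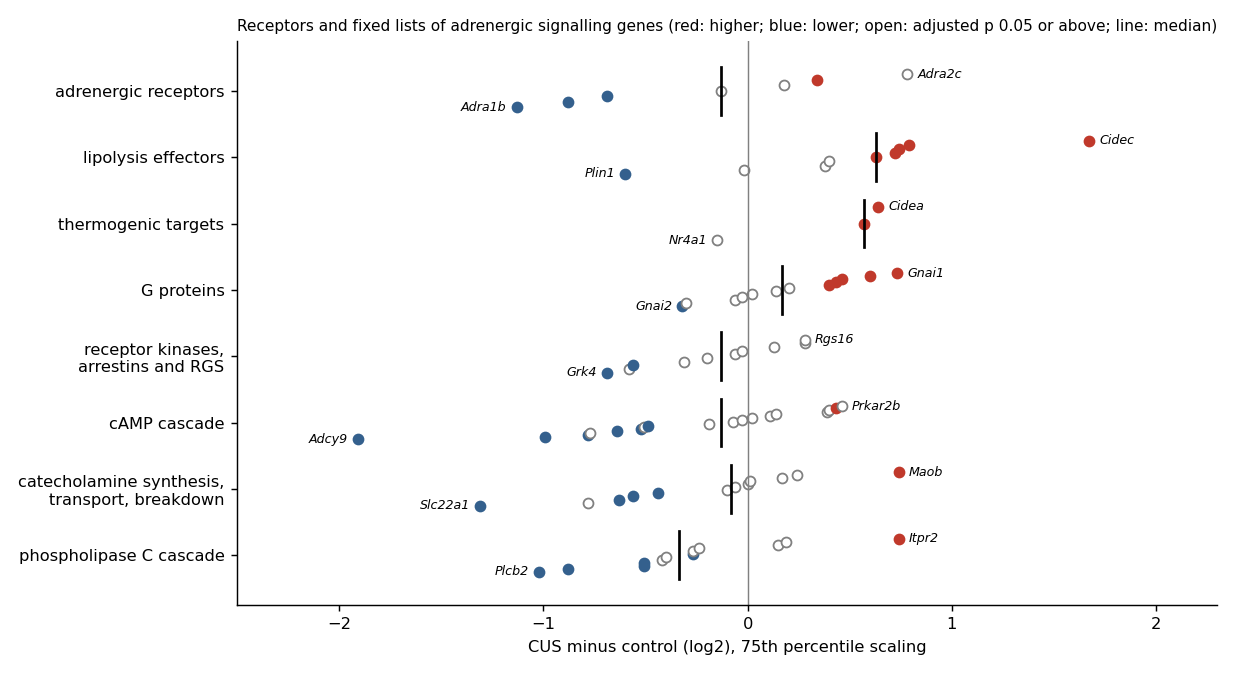
Difference between CUS and control (log2, 75th percentile scaling) of the 7 tested receptors and of each tested gene of the 7 signalling lists, 1 point per gene with the list's median as a line. Red and blue points passed as higher and lower, open points did not; lipolysis effectors have a median of 0.63 and the phospholipase C cascade of -0.34, while the receptors lie on both sides of 0.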

How the data were processed

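Scanner output of 12 arrays, 6 CUS and 6 control, was used. The intensities the authors deposited are the processed signal of Agilent Feature Extraction (10.7.3.1 per the file headers), from which that software had removed local background and spatial trends, with no normalization between arrays. A deposited table of linear intensities after quantile normalization served as an alternative. The paper's methods name an exon array, whereas the scanner files come from a gene expression design. The dChip calls of the study are not used here.

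Outlier spots were left out, log2 intensities of a probe's spots were averaged, and the 75th percentile of non-control probes was subtracted per array. A probe counted as well above background where at least a share of 0.5 of its spots were. Probes well above background on at least 6 arrays were tested with limma 3.58.1 (R 4.3.3; moderated variances, two-sided, no covariate, Benjamini-Hochberg, threshold 0.05). Receptor ratios were compared with an exact permutation test (Python 3.11.15, NumPy 2.4.6, pandas 2.3.3). Accessions were matched to symbols by the RefSeq gene table of GRCr8, in which 17514 probes had an entry, all 8 receptors under the same symbol; positions come from the array design (rn4). The members, gene lists and marker lists were chosen with earlier results of these data known. Every receptor is named, and from each signalling list the 3 genes with the smallest adjusted p and the 2 brightest, besides the 5 probes most like Adrb3 and markers used to check the cells.

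The sample titles do not say what the replicate numbers stand for, and samples were treated as unpaired. In simulated data for this comparison (19721 probes), 31 of 80 probes changed by 0.5 (log2) were called, 46 of 57 changed by 1 and 61 of 63 changed by 2, with 13 false calls. The simulation changed only 200 probes and gave both groups the same variance. In the data 24.7% of tested probes were called higher and 25.4% lower, and the median ratio of control SD to CUS SD was 1.47. These counts check the procedure and need not hold for the data. The number of arrays limits precision, as does signal over background where a probe is dim: 64.7% to 67.0% of probes were well above background on CUS arrays and 60.4% to 67.3% on control arrays. Alternatives covered normalization, background correction, filters, variance model, test, block and each array left out.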

Additional observations from a re-analysis of the deposited data

Results flagged for a closer look

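In 1 of 16 groups of receptor values, a single array lay far from the others by Dixon's test, where chance gives about 1 in 20. Adra1b in control replicate 3 was at -2.94, while the other controls were at -0.97 to -0.45, and the gap made up 0.792 of the range of the group. The same array had the lowest means of vascular smooth muscle and endothelial markers among the controls, and also of stromal, macrophage and nerve and Schwann cell markers.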

How the results depend on the processing

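Receptors higher in CUS were 1 in the analysis above, 2 with array weights, 3 under median scaling, 4 relative to the spike-ins and 0 by the methods' test with a 2-fold threshold and no adjustment (1 at an unadjusted p under 0.05 without the fold), and 0 to 2 without any 1 array. Receptors lower in CUS were 3, against 1 under quantile normalization, 1 in the deposited table, 0 relative to the spike-ins, 1 by the methods' test with that threshold, and 2 to 3 without any 1 array. After Benjamini-Hochberg adjustment the methods' test called 1 higher and 2 lower. Signalling genes higher were 15, against 24 with array weights, 31 under median scaling, 50 relative to the spike-ins, 1 by the methods' test with the fold and 13 to 21 without any 1 array. Signalling genes lower were 19, against 29, 8, 1, 3 and 14 to 27 in the same order, and 37 with normexp background correction, under which dim probes move toward negative differences. Pairs of receptors passing were 10, and 7 to 15 over 16 alternatives. Signs turned for Adra2b relative to the spike-ins (0.16), for Adra2c with normexp (-0.22) and for Adrb1 under median scaling (0.14), quantile normalization (0.15), in the deposited table (0.15), relative to the spike-ins (0.71) and without control replicate 3 (0.01, with -0.24 to 0.01 over the arrays left out). The median of all tested probes was itself 0.83 relative to the spike-ins and -0.18 with normexp. Relative to marker means, added after seeing the data, signs turned for Adra1d (-0.05, adipocytes), for Adra1a, Adra1b, Adra2b and Adrb1 (0.68, 0.42, 0.86 and 1.42, smooth muscle) and for Adra2b and Adrb1 (0.14 and 0.70, endothelium). The difference of a list's own mean is taken off every receptor alike. The causes were not tested. With the replicate number as a block, 1 receptor was higher and 3 lower, 16 signalling genes were higher and 21 lower, and no receptor call changed. Samples were treated as unpaired, and deviations of same-numbered arrays correlated at -0.186 to 0.434, with 3 of 12 arrays correlating best with their own number. The planned comparison of several probes of 1 receptor could not give a value, since each receptor has 1 probe. Dim probes, those of Adra2a, Adra2c and Adra1a above all, are limited by signal over background.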
